A study of Mus musculus with 72 samples.

Results

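Calcium and phosphoinositide signalling genes were described here as the 66 genes, of 1266 named genes measured, whose symbols begin with the prefixes of phospholipase C (Plc), phosphatidylinositol 3-kinase (Pik3), inositol phosphatases (Inpp), diacylglycerol kinases (Dgk), inositol trisphosphate and ryanodine receptors (Itpr, Ryr), voltage-gated calcium channels (Cacn), calcium pumps (Atp2a, Atp2b), calmodulin-dependent kinases (Camk), calcineurin (Ppp3), adenylyl cyclases (Adcy), Prka kinases and heterotrimeric G proteins (Gna, Gnb, Gng). Protein kinase C genes were left out. The prefixes also took in 2 genes of a neighbouring kind, Adcyap1 and Adcyap1r1, which encode the peptide PACAP and its receptor, and 4 subunits of AMP-activated protein kinase (Prkaa2, Prkab1, Prkab2, Prkag1). Sorted by role, the 66 genes fell into 15 classes. By the scaling of their deposited values, 33 were assigned to each of the 2 probe panels.

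In this pathway, receptors coupled to the Gq family or to tyrosine kinases switch on phospholipase C, which splits the membrane lipid PIP2 into inositol trisphosphate and diacylglycerol. Inositol trisphosphate opens release channels of the endoplasmic reticulum, calcium also enters through voltage-gated channels, and pumps return it to the store or out of the cell. Calmodulin-dependent kinases and the phosphatase calcineurin read the calcium signal, phosphatidylinositol 3-kinase uses the same PIP2 to start a separate kinase cascade, and adenylyl cyclase and protein kinase A form the cAMP arm. In cortex most of these genes are best known from neurons, where they serve excitability and synaptic plasticity.

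The study measured cortical RNA of 36 mice aged 7.5 months with NanoString nCounter probes, which count RNA molecules directly through coloured barcodes, to examine variants of phospholipase C-γ2, an isoform known from microglia in brain. All mice carried 5xFAD, transgenes for mutant human genes of familial Alzheimer disease, APP among them, driven in neurons by the Thy1 promoter, which make amyloid deposit in the brain. M28L and P522R are amino acid changes of phospholipase C-γ2, known from human genetics as a risk and a protective variant for Alzheimer disease. The 3 genotypes were 5xFAD alone, M28L_5xFAD and P522R_5xFAD, each with 6 females (F) and 6 males (M), so that 6 groups of 6 mice resulted. No mice without 5xFAD were analysed here, so no level could be set against a brain free of amyloid. A pair of M28L_5xFAD females carried the same number, 14, with different indices (1 and 8). They were kept as separate mice, and the labels name no run or litter.

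Recovered total counts per mouse and panel ran from 237563 to 1957325. Each gene was listed once and assigned to 1 panel. A total covers only the genes assigned to a panel, which may be fewer than that panel counted. In the smaller panel of 509 genes the totals were 274013 to 338173 in 5xFAD females, 237563 to 318180 in M28L_5xFAD females and 404333 to 774198 in P522R_5xFAD females. Among males 1 P522R_5xFAD library had a lower total (259284) than any of the other males. Each of the 66 genes was measured in every mouse, but 3 had mean counts under 20 (Gngt1, Cacna1f and Cacna1s), and their values are imprecise. Values are log2 normalized counts from probes of different efficiency, so levels were compared between groups for a gene and never between genes. Within a group, the median SD over the 66 genes was between 0.059 (M28L_5xFAD males) and 0.17 (M28L_5xFAD females) on the log2 scale. Because RNA came from whole cortex, fewer cells of a type and less RNA per cell cannot be told apart in any of the values below.

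The genotype comparisons differed greatly in how many of the 66 genes passed the test. A gene was called changed when its adjusted p was under 0.05 in limma's moderated test, with Benjamini-Hochberg adjustment over 1266 genes and females and males given equal weight. In P522R_5xFAD against 5xFAD, 53 of the 66 genes were called, 36 higher and 17 lower, while 65.4% of all measured genes were called in that comparison. The median difference was 0.16 log2 over the 66 genes and 0.084 over all genes. In M28L_5xFAD against 5xFAD, 3 of the 66 were called, all lower, against 10.3% of all genes. The median difference was -0.026 over the 66 genes and 0.001 over all genes. Both comparisons use the same 5xFAD mice, so their values are set side by side and not counted as independent.

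**Figure D1:**
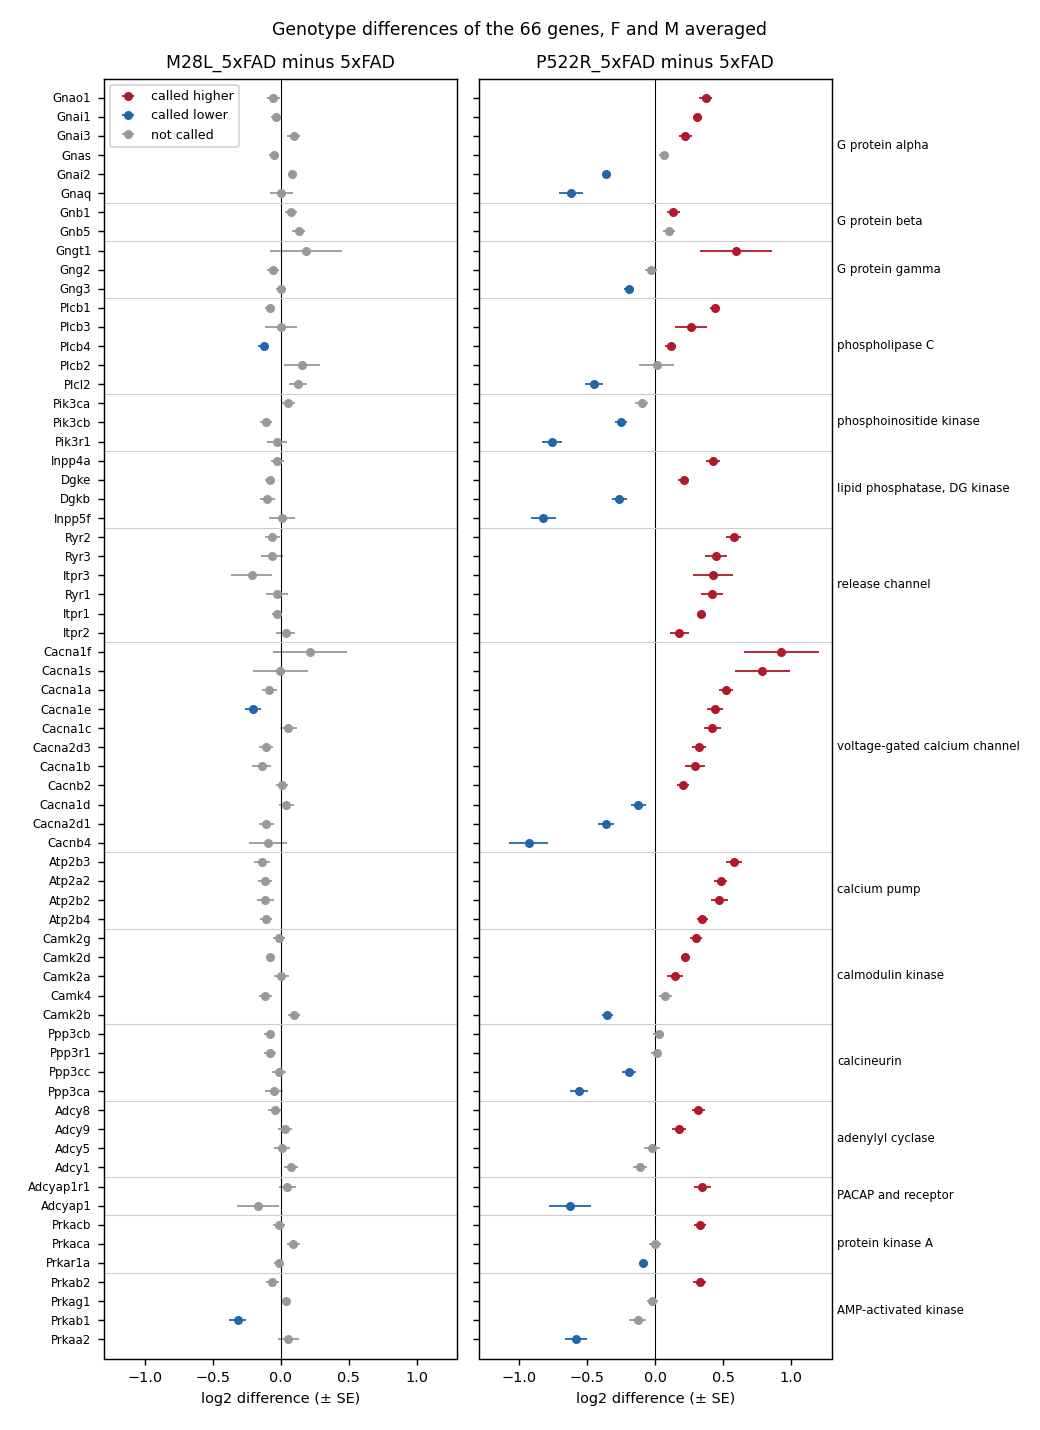
Log2 difference (± SE) of each of the 66 genes in M28L_5xFAD minus 5xFAD (left) and in P522R_5xFAD minus 5xFAD (right), females and males averaged, 12 mice per genotype, sorted by class and by the P522R difference; red points were called higher, blue points lower and grey points not called. Of the 66 genes, 3 were called on the left, and 53 on the right, where the 6 release channels and the 4 calcium pumps all lie above 0.

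Stretches of 5 promoters are printed, first to show genes that stood at the ends of these comparisons. Prkab1 was the gene with the smallest p in M28L_5xFAD. Inpp5f and Pik3r1 were the enzymes of lipid signalling with the 2 largest falls in P522R_5xFAD. Inpp4a and Prkar1a were added because, of the 53 members with a listed promoter, only they held a complete cAMP response element. It stood before 2 of 3 listed starts of Inpp4a and 1 of 6 of Prkar1a. That element is the docking site of CREB, the transcription factor that protein kinase A and Camk4 phosphorylate. Each stretch covers the 150 bases before an annotated transcription start in RefSeq (GRCm38.p6), read 5′ to 3′ on the gene's strand, with TGACGTCA in capitals in Inpp4a and Prkar1a and the GC box GGGCGG, found in either orientation, in capitals in Inpp5f and Pik3r1. Prkab1 (chr5:116024429-116024578, minus strand) held neither, and the others lie at chr1:37299688-37299837, plus strand (Inpp4a), chr11:109650799-109650948, plus strand (Prkar1a), chr7:128611215-128611364, plus strand (Inpp5f) and chr13:101768218-101768367, minus strand (Pik3r1).
Prkab1: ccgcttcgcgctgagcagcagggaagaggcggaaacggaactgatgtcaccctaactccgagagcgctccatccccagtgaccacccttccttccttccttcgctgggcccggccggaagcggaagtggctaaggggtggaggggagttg
Inpp4a: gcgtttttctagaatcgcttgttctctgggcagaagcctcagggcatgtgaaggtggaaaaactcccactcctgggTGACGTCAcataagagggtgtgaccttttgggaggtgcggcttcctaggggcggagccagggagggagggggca
Prkar1a: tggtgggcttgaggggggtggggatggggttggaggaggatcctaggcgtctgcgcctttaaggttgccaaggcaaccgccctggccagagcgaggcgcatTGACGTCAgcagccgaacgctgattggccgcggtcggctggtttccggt
Inpp5f: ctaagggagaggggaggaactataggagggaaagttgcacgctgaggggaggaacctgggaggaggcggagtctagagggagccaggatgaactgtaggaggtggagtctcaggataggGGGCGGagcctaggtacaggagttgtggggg
Pik3r1: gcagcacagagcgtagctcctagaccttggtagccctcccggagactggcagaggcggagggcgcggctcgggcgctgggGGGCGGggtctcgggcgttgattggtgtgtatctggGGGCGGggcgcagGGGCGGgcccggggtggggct
Of the 66 genes, 53 had at least 1 listed promoter. In the 250 bases before any listed start, on both strands, TGACGTCA occurred in 2 of them (3.8%), against 1.8% of 27018 genes with a listed promoter and 3.3% of the 891 other genes of the panels. Inpp4a rose in P522R_5xFAD and Prkar1a fell, so the pair that shared the element moved in opposite directions. The shorter motif TGACG, which is part of TGACGTCA, occurred in 17 (32.1%), against 19.8% of all genes and 26.9% of the other panel genes. GGGCGG was found in 40 (75.5%), against 35.4% and 62.1%. In Pik3r1 it stood before 1 of 2 listed starts. Among the genes that rose in P522R_5xFAD 22 of 28 held GGGCGG, and among those that fell 10 of 13 did. The median GC content of the 250 bases was 64.2% in the first set and 63.6% in the second. A match describes letters in the window and is no evidence of a factor bound there.

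M28L_5xFAD cortex differed from 5xFAD cortex in few of the genes. Prkab1, the β1 regulatory subunit of the energy sensor AMP-activated protein kinase, fell by 0.32 on the log2 scale (SE 0.061, adjusted p = 0.00045), a 1.25-fold difference, and 12 of 12 M28L_5xFAD mice lay below the 5xFAD mean of their own sex. For Prkab1, in females the median log2 value (lowest to highest) was 7.83 (7.67 to 8.07) in 5xFAD, 7.66 (7.54 to 7.73) in M28L_5xFAD and 7.72 (7.59 to 8.05) in P522R_5xFAD mice, and in males it was 8.05 (8.01 to 8.16), 7.64 (7.39 to 7.87) and 7.9 (7.59 to 8.15) in the same order. In males every M28L_5xFAD mouse lay below every 5xFAD mouse, whereas in females the groups overlapped. The difference was -0.43 in males (adjusted p = 0.00244) and -0.21 in females (adjusted p = 0.167), and the difference between the sexes, 0.22, was not called (adjusted p = 0.9997). The call in males was lost with M28L_5xFAD mice of index 1 to 3 alone. The call of Prkab1 over both sexes held under each of the 12 alternative settings and without each single mouse.

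Cacna1e, which encodes the pore of R-type calcium channels, fell in M28L_5xFAD by 0.20 on the log2 scale (SE 0.058, adjusted p = 0.0193), in 11 of 12 mice. For Cacna1e, median log2 values (with the range over 6 mice) were 9.43 (9.26 to 9.70), 9.22 (8.88 to 9.57) and 10.05 (9.92 to 10.10) in 5xFAD, M28L_5xFAD and P522R_5xFAD females, against 10.04 (10.00 to 10.12), 9.88 (9.84 to 9.94) and 10.35 (10.22 to 10.47) in males. M28L_5xFAD males lay wholly below 5xFAD males, and the female ranges overlapped. Plcb4, a phospholipase C that Gq proteins activate, fell by 0.12 on the log2 scale (SE 0.041, adjusted p = 0.0443), in 11 of 12 mice. For Plcb4, the 5xFAD, M28L_5xFAD and P522R_5xFAD females had median log2 values (lowest to highest) of 9.57 (9.30 to 9.61), 9.38 (9.22 to 9.54) and 9.56 (9.47 to 9.63), and the males of 9.50 (9.47 to 9.58), 9.37 (9.32 to 9.45) and 9.70 (9.59 to 9.81). The same held for Plcb4, with separate male ranges (highest M28L_5xFAD mouse 9.45, lowest 5xFAD mouse 9.47) and overlapping female ranges, but 16 of the 36 single mice ended its call when left out. The call of Plcb4 was lost under 7 of the 12 alternatives, with an adjusted p of 0.0522 to 0.341. That of Cacna1e was lost under 3, with centring within each panel (adjusted p = 0.0916), with M28L_5xFAD mice of index 7 to 9 alone (-0.12, adjusted p = 0.236) and without a term for sex (adjusted p = 0.677).

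No other member was called in M28L_5xFAD. The 4 calcium pumps had similar negative values, from -0.14 (Atp2b3) to -0.11 (Atp2b4, Atp2b2), none of them called, and the member of smallest p, Atp2b4, had an adjusted p of 0.106. In the remaining classes the genes of smallest p were Gnb5 (0.13, adjusted p = 0.068), Gnai2 (0.09), Camk4 (-0.11), Pik3cb (-0.11), Ppp3cb (-0.08), Prkaca (0.09), Dgke (-0.08), Adcy1 (0.08), Gng2 (-0.06), Itpr3 (-0.21) and Adcyap1 (-0.17). Over all 66 genes the M28L differences ran from -0.32 to 0.22, and 16 had an unadjusted p under 0.05, against 289 of 1266 genes. In females alone 0 of the 66 genes were called by limma (10 had an unadjusted p under 0.05), with 3.87% of all genes called, and in males 1 was called, Prkab1, with 2.05% of all genes. No gene of the 66 separated M28L_5xFAD from 5xFAD mice without overlap in both sexes, as 0.711% of all genes did.

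**Figure D2:**
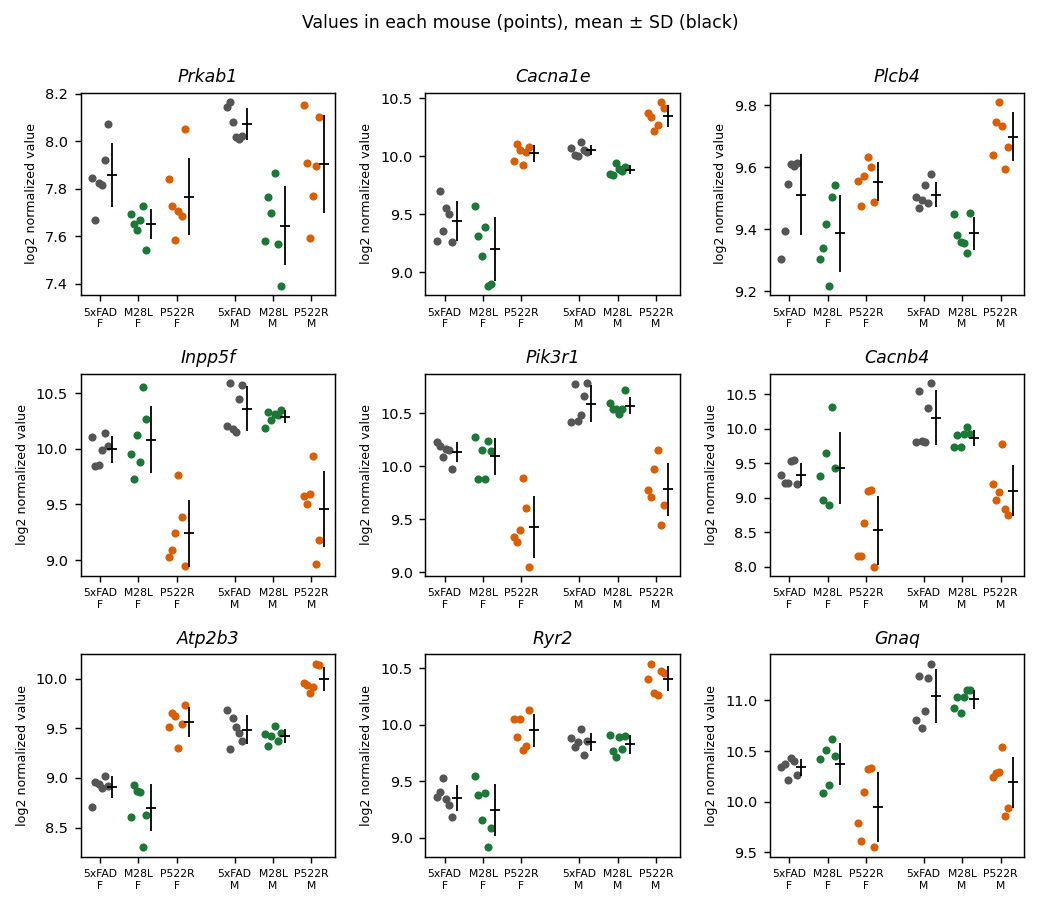
Log2 normalized value of 9 genes in each of the 36 mice (points, coloured by genotype) with the group mean ± SD (black, n = 6), females on the left and males on the right of each panel. Prkab1 is low in M28L_5xFAD, Inpp5f, Pik3r1, Cacnb4 and Gnaq are low and Atp2b3 and Ryr2 high in P522R_5xFAD, and Cacna1e lies lower in M28L_5xFAD and higher in P522R_5xFAD than in 5xFAD.

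In P522R_5xFAD cortex the machinery that moves calcium was mostly higher, and the enzymes of lipid and calcium signalling moved both ways. All 6 release channels and all 4 pumps rose, 8 of 11 voltage-gated channel subunits rose, and the 2 called genes of 3 phosphatidylinositol 3-kinase subunits and of 4 calcineurin subunits fell. Phospholipase C genes split into 3 higher and 1 lower, calmodulin-dependent kinases into 3 and 1, and lipid phosphatases with diacylglycerol kinases into 2 and 2. Of all 1266 genes, 513 were called higher and 315 lower. In females alone 6 of 6 release channels, 4 of 4 pumps and 8 of 11 voltage-gated subunits were called higher, and in males alone 2, 4 and 5, with 498 and 339 of all genes called higher. In both sexes 17 of the 66 genes separated P522R_5xFAD from 5xFAD mice without overlap and in the same direction, 13 higher and 4 lower, while 13.2% of all genes did so. The 13 were Prkab2, Gnai1, Atp2a2, Atp2b2, Atp2b3, Atp2b4, Dgke, Inpp4a, Plcb1, Itpr1, Ryr2, Cacna1a and Cacna1e, and the 4 were Ppp3ca, Inpp5f, Pik3r1 and Cacnb4. The alternative filter at a mean log2 of 5 tested 62 of the 66 genes and left out Adcyap1. Of the 53 calls, 38 held under each of the 12 alternative settings that tested the gene and without each single mouse. In all, 42 kept their direction and call under the 3 other scalings (each mouse centred on its median, the same within each panel, and quantile normalization). Among the called genes, Cacna1d and Gngt1 were the only ones whose sign turned under any of these settings. The calls of Adcy9, Camk2b, Dgke and Prkar1a were lost only without a term for sex. Leaving out single mice ended the calls of Plcb3 (27 of the 36 mice), Gngt1 (20), Cacna1d (14), Itpr2 (4) and Camk2a (2).

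Among the G proteins, which carry the receptor signal to phospholipase C and adenylyl cyclase, 3 of 6 α subunits rose and 2 fell. Gnaq, the α subunit that activates phospholipase Cβ, fell by 0.62 on the log2 scale (SE 0.087, adjusted p = 1.29e-07), a 1.54-fold difference seen in 12 of 12 mice. For Gnaq, the median log2 value (lowest to highest mouse) was 10.36 (10.21 to 10.43) in 5xFAD, 10.43 (10.08 to 10.62) in M28L_5xFAD and 9.94 (9.55 to 10.33) in P522R_5xFAD females, and 11.05 (10.73 to 11.36), 11.03 (10.88 to 11.11) and 10.26 (9.86 to 10.54) in the males of those genotypes. P522R_5xFAD mice lay low in both sexes, and in males none of them overlapped the 5xFAD males. Gnai2, an inhibitory α subunit abundant in many cell types, fell by 0.36, whereas Gnai1 (0.31), Gnai3 (0.22) and the neuronal Gnao1 (0.37), all of the same inhibitory family, rose. Gnas, which stimulates adenylyl cyclase, had a difference of 0.06 and was not called (adjusted p = 0.121).

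Of the β and γ subunits, which form the partner dimer, Gnb1 was higher by 0.13 (SE 0.046, adjusted p = 0.0114) and Gng3 fell by 0.19 on the log2 scale (SE 0.037, adjusted p = 3.13e-05). For Gnb1, in females the median log2 value (lowest to highest) was 12.37 (12.09 to 12.49) in 5xFAD, 12.46 (12.04 to 12.62) in M28L_5xFAD and 12.48 (12.35 to 12.57) in P522R_5xFAD mice, and in males it was 12.64 (12.56 to 12.72), 12.72 (12.65 to 12.76) and 12.79 (12.74 to 12.85) in the same order. These Gnb1 ranges overlapped in females, and the call was lost under each of the 3 other scalings. Gngt1, a γ subunit of photoreceptors, was higher by 0.60 (SE 0.27, adjusted p = 0.0477), but with median counts of 2.5 in 5xFAD and 10.5 in P522R_5xFAD females. For Gngt1, median log2 values (with the range over 6 mice) were 1.80 (1.39 to 3.13), 1.94 (0.67 to 2.95) and 3.09 (1.99 to 3.45) in 5xFAD, M28L_5xFAD and P522R_5xFAD females, against 3.18 (2.01 to 3.60), 3.70 (2.79 to 4.0) and 3.2 (2.98 to 4.22) in males. Here the groups overlapped in both sexes, and quantile normalization gave a negative difference (-0.32, not called). Gnb5 and Gng2 were not called.

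Of 5 phospholipase C genes 3 were called higher and 1 lower, and the call of 1 of the 3, Plcb3, was lost under 8 of the 12 alternatives. The gene of phospholipase C-γ2, which carries the variants, was not among the named genes, so its own RNA could not be compared. Plcb1, the main phospholipase Cβ of cortical neurons, rose by 0.44 (SE 0.036, adjusted p = 1.38e-12), in 12 of 12 mice, and its ranges did not overlap those of 5xFAD in either sex. Plcb4 (0.11) and Plcb3 (0.26) had smaller differences. Plcb4 lost its call with median centring, with centring within each panel and without a term for sex. Plcb3 lost its call with median centring (adjusted p = 0.0794) and, among others, with no trend and with the replicate block. Plcl2, a phospholipase C-like protein without catalytic activity that binds inositol trisphosphate, fell by 0.45 (SE 0.068, adjusted p = 4.8e-07). For Plcl2, the 5xFAD, M28L_5xFAD and P522R_5xFAD females had median log2 values (lowest to highest) of 10.87 (10.74 to 11.05), 10.99 (10.87 to 11.13) and 10.43 (9.96 to 10.76), and the males of 11.25 (11.20 to 11.32), 11.41 (11.29 to 11.49) and 10.92 (10.54 to 11.11). P522R_5xFAD mice were low in both sexes, without overlap in males and with a slight overlap (10.74 to 10.76) in females. Plcb2, an isoform of blood cells, was not called (0.01, adjusted p = 0.955).

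Of 3 lipid kinase subunits 2 fell and none rose. Pik3r1, the p85α regulatory subunit that holds the catalytic subunit of phosphatidylinositol 3-kinase at activated receptors, fell by 0.76 (SE 0.074, adjusted p = 8.51e-11), a 1.69-fold difference in 12 of 12 mice. For Pik3r1, the median log2 value (lowest to highest mouse) was 10.16 (9.97 to 10.23) in 5xFAD, 10.14 (9.88 to 10.27) in M28L_5xFAD and 9.36 (9.05 to 9.89) in P522R_5xFAD females, and 10.57 (10.41 to 10.79), 10.54 (10.49 to 10.72) and 9.74 (9.45 to 10.15) in the males of those genotypes. P522R_5xFAD mice lay below all 5xFAD mice of their sex. Of the catalytic subunits, Pik3cb fell by 0.25 (adjusted p = 8.47e-06), and Pik3ca had a difference of -0.10 that was not called (adjusted p = 0.0758).

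Enzymes that remove the lipid messengers moved both ways. Inpp5f, a phosphatase of phosphoinositides that acts on endosomes, fell by 0.83 (SE 0.092, adjusted p = 1.4e-09), a 1.77-fold difference. For Inpp5f, in females the median log2 value (lowest to highest) was 10.01 (9.85 to 10.14) in 5xFAD, 10.04 (9.73 to 10.55) in M28L_5xFAD and 9.2 (8.95 to 9.76) in P522R_5xFAD mice, and in males it was 10.33 (10.15 to 10.59), 10.31 (10.19 to 10.35) and 9.54 (8.97 to 9.93) in the same order. Every P522R_5xFAD mouse was lower than every 5xFAD mouse of its sex, and the P522R_5xFAD mice were spread more widely than the 5xFAD mice in both sexes. Inpp4a, which removes the 4-phosphate of PI(3,4)P2, rose by 0.42 (SE 0.051, adjusted p = 6.56e-09). Diacylglycerol kinases split, with Dgke higher (0.21) and Dgkb lower (-0.27).

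All 6 calcium release channels rose. Ryr2, the ryanodine receptor of heart that is also widespread in neurons, rose by 0.58 (SE 0.056, adjusted p = 6.42e-11), a 1.49-fold difference in 12 of 12 mice. For Ryr2, median log2 values (with the range over 6 mice) were 9.35 (9.19 to 9.53), 9.27 (8.92 to 9.54) and 9.97 (9.78 to 10.13) in 5xFAD, M28L_5xFAD and P522R_5xFAD females, against 9.85 (9.73 to 9.96), 9.84 (9.72 to 9.91) and 10.43 (10.27 to 10.54) in males. The ranges of P522R_5xFAD and 5xFAD did not overlap in either sex. Ryr3 and Ryr1 rose by 0.45 and 0.42, and the inositol trisphosphate receptors Itpr1, Itpr3 and Itpr2 by 0.34, 0.42 and 0.18. Itpr1, the main neuronal isoform, had the smallest SE of the 3 (0.035), and its mice did not overlap, while Itpr2 lost its call with median centring and Itpr3 with quantile normalization.

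The 4 calcium pumps rose as well. Atp2b3, a plasma membrane pump of neurons, rose by 0.58 (SE 0.06, adjusted p = 2.71e-10), a 1.5-fold difference in 12 of 12 mice. For Atp2b3, the 5xFAD, M28L_5xFAD and P522R_5xFAD females had median log2 values (lowest to highest) of 8.93 (8.70 to 9.02), 8.74 (8.30 to 8.93) and 9.58 (9.30 to 9.73), and the males of 9.48 (9.29 to 9.69), 9.43 (9.32 to 9.52) and 9.95 (9.86 to 10.15). P522R_5xFAD mice lay above 5xFAD mice in both sexes. Atp2a2 (SERCA2), which refills the endoplasmic reticulum, rose by 0.48, and the plasma membrane pumps Atp2b2 and Atp2b4 by 0.47 and 0.35. For each of the 4, the P522R_5xFAD and 5xFAD ranges were separate in females and in males.

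Voltage-gated calcium channels showed a rise of most pore-forming subunits and a mixed picture of the auxiliary ones. The pores of P/Q-type (Cacna1a, 0.52), R-type (Cacna1e, 0.44), N-type (Cacna1b, 0.29) and L-type channels (Cacna1c, 0.42) rose. Another L-type pore, Cacna1d, fell by 0.12 (adjusted p = 0.0414), a call that was lost with centring within each panel, where its sign turned. The retinal and muscle pores Cacna1f (0.93) and Cacna1s (0.79) were called higher at mean counts under 20, and neither call held under quantile normalization. The β subunit Cacnb4, which brings the pore to the membrane and is mutated in epileptic lethargic mice, fell by 0.93 (SE 0.14, adjusted p = 4.83e-07), a 1.91-fold difference in 12 of 12 mice. For Cacnb4, the median log2 value (lowest to highest mouse) was 9.27 (9.20 to 9.54) in 5xFAD, 9.38 (8.90 to 10.32) in M28L_5xFAD and 8.40 (8.01 to 9.12) in P522R_5xFAD females, and 10.06 (9.81 to 10.67), 9.92 (9.73 to 10.02) and 9.03 (8.75 to 9.78) in the males of those genotypes. P522R_5xFAD mice lay below 5xFAD mice in both sexes with a wide spread, and 2 M28L_5xFAD females, at 9.66 and 10.32, lay above all females of the other genotypes. The other β subunit, Cacnb2, rose by 0.20. Of the α2δ subunits, Cacna2d1, a target of gabapentin, fell by 0.36 and Cacna2d3 rose by 0.32.

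**Figure D3:**
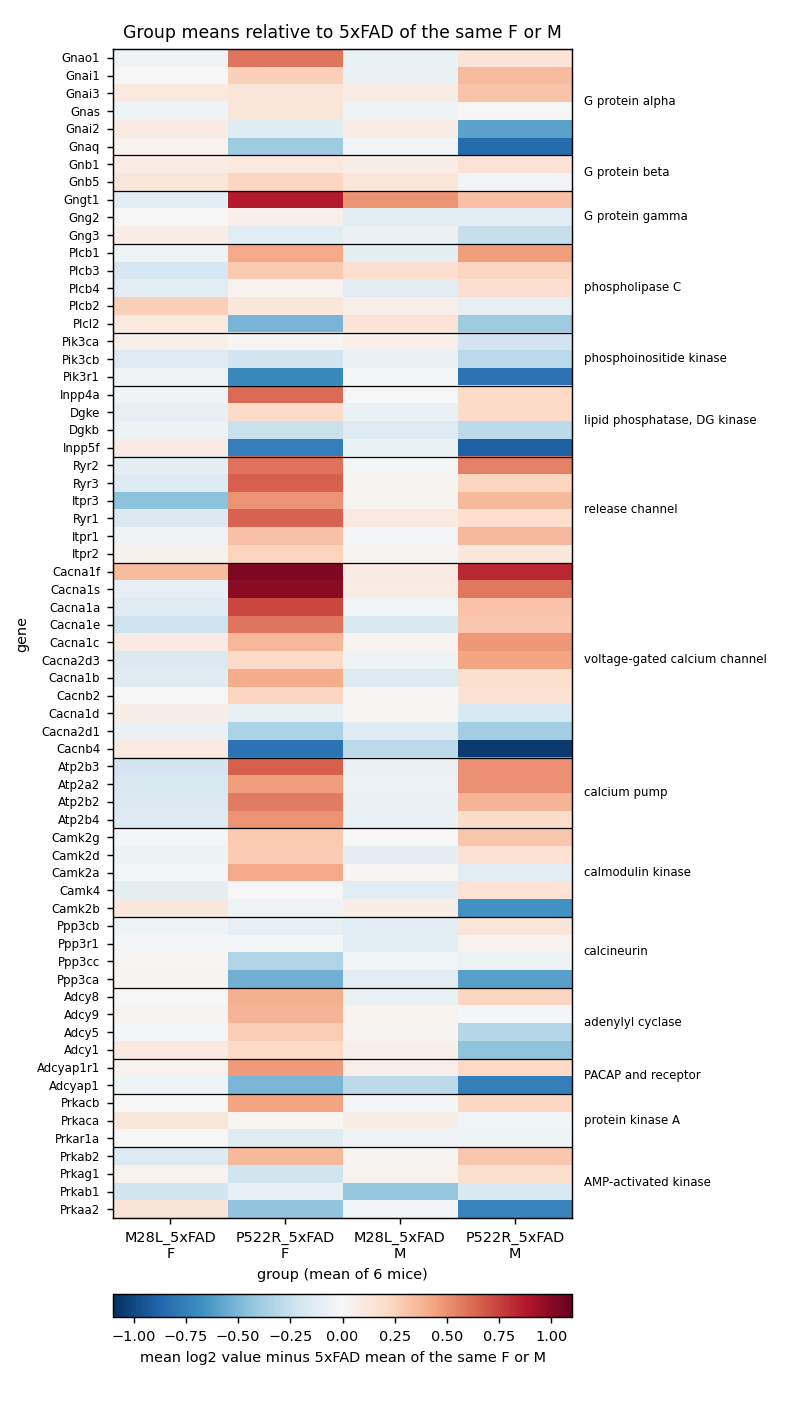
Group mean log2 value of each of the 66 genes minus the 5xFAD mean of the same sex, for the 4 groups that carry a variant (columns, 6 mice each), with genes sorted by class; red is higher and blue lower than 5xFAD. The 2 columns of P522R_5xFAD carry most of the colour, with Cacnb4 at -0.81 in females and -1.06 in males, and the release channels and pumps are red in both.

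Among the readers of calcium, 3 of 5 calmodulin-dependent kinases rose and 1 fell. Camk2b, the β subunit of the synaptic kinase CaMKII, fell by 0.35 (SE 0.044, adjusted p = 1.22e-08). For Camk2b, in females the median log2 value (lowest to highest) was 10.89 (10.84 to 11.07) in 5xFAD, 11.02 (10.87 to 11.23) in M28L_5xFAD and 10.87 (10.69 to 11.12) in P522R_5xFAD mice, and in males it was 11.84 (11.75 to 11.91), 11.90 (11.84 to 11.97) and 11.19 (11.02 to 11.35) in the same order. In males the ranges were separate (-0.66, called), and in females they overlapped (-0.04, not called), a difference between the sexes that is tested below. Its partner subunits Camk2g (0.30) and Camk2d (0.22) rose. Camk2a was called higher over both sexes (0.15), without holding under any of the 3 other scalings. Within the sexes, Camk2a was called higher in females (0.415) and not called in males, where its difference was negative. That sex difference (0.54) was called. Camk4, the nuclear kinase of CREB, was not called (0.07).

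Calcineurin, the calcium-dependent phosphatase, had 2 of 4 subunits lower and none higher. Ppp3ca, the main catalytic subunit in brain, fell by 0.56 (SE 0.066, adjusted p = 4.75e-09), in 12 of 12 mice. For Ppp3ca, median log2 values (with the range over 6 mice) were 13.51 (13.46 to 13.61), 13.48 (13.32 to 14.00) and 12.96 (12.74 to 13.32) in 5xFAD, M28L_5xFAD and P522R_5xFAD females, against 13.94 (13.74 to 14.20), 13.86 (13.78 to 13.94) and 13.34 (13.23 to 13.65) in males. P522R_5xFAD mice lay below 5xFAD mice in both sexes. Ppp3cc fell by 0.19, a call lost with centring within each panel, and Ppp3cb and the regulatory Ppp3r1 differed by 0.02 and 0.01 and were not called.

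In the cAMP arm, 2 of 4 adenylyl cyclases rose and 2 were not called. Adcy8, a cyclase that calcium and calmodulin stimulate, rose by 0.32 (SE 0.05, adjusted p = 9.19e-07). For Adcy8, the 5xFAD, M28L_5xFAD and P522R_5xFAD females had median log2 values (lowest to highest) of 8.50 (8.42 to 8.65), 8.48 (8.41 to 8.70) and 8.94 (8.71 to 9.12), and the males of 9.05 (8.99 to 9.19), 9.00 (8.89 to 9.10) and 9.32 (9.09 to 9.57). P522R_5xFAD females lay wholly above 5xFAD females, and the males overlapped. Adcy9 rose by 0.17 over both sexes. It was called in females alone (mean log2 9.90 against 9.53 in 5xFAD) and not in males alone (10.27 against 10.29). That sex difference (0.39) was called, but not with median centring or with centring within each panel. Adcy1 and Adcy5 had averaged differences of -0.11 and -0.02 that hid opposite values in the sexes, given below. Adcyap1, which encodes the peptide PACAP, a stimulator of adenylyl cyclase, fell by 0.63 (SE 0.15, adjusted p = 0.000503), and its receptor Adcyap1r1 rose by 0.35. For Adcyap1, the median log2 value (lowest to highest mouse) was 4.69 (3.79 to 5.36) in 5xFAD, 4.60 (3.84 to 5.47) in M28L_5xFAD and 4.23 (3.84 to 4.47) in P522R_5xFAD females, and 5.56 (5.31 to 5.74), 5.17 (5.04 to 5.62) and 4.69 (4.49 to 5.25) in the males of those genotypes. In males P522R_5xFAD lay below 5xFAD without overlap, at median counts of 24 against 42, and in females the ranges overlapped.

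Of 3 protein kinase A subunits 1 rose and 1 fell. Prkacb, a catalytic subunit of neurons, rose by 0.33 (SE 0.044, adjusted p = 3.9e-08). For Prkacb, in females the median log2 value (lowest to highest) was 9.25 (9.15 to 9.40) in 5xFAD, 9.25 (9.14 to 9.39) in M28L_5xFAD and 9.73 (9.54 to 9.80) in P522R_5xFAD mice, and in males it was 9.63 (9.47 to 9.72), 9.60 (9.51 to 9.70) and 9.85 (9.69 to 10.03) in the same order. The P522R_5xFAD females lay above all 5xFAD females, and in males the lowest P522R_5xFAD mouse lay within the 5xFAD range. The regulatory subunit Prkar1a fell by 0.09 (adjusted p = 0.0171), and the catalytic Prkaca was not called (-0.00, SE 0.046).

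AMP-activated protein kinase, which is switched on by low energy and by a calmodulin-dependent kinase, had 1 of 4 subunits higher and 1 lower in P522R_5xFAD. Prkaa2, the α2 catalytic subunit, fell by 0.58 (SE 0.08, adjusted p = 7.92e-08). For Prkaa2, median log2 values (with the range over 6 mice) were 8.03 (7.9 to 8.34), 8.27 (7.85 to 8.36) and 7.56 (7.27 to 8.03) in 5xFAD, M28L_5xFAD and P522R_5xFAD females, against 8.68 (8.56 to 9.01), 8.75 (8.63 to 8.81) and 8.02 (7.62 to 8.31) in males. Males of P522R_5xFAD lay below all 5xFAD males, and in females the ranges overlapped. Prkab2, the β2 subunit, rose by 0.33 (SE 0.047, adjusted p = 1.83e-07) without overlap in either sex. Its paralogue Prkab1, the gene that was lower in M28L_5xFAD, differed by -0.13 in P522R_5xFAD and was not called (adjusted p = 0.0585), although it was called lower with centring within each panel.

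P522R_5xFAD was also compared with M28L_5xFAD directly, and 56 of the 66 genes were called, 37 higher and 19 lower, with 67.6% of all genes called. This comparison uses the same P522R_5xFAD mice as the one above. The 5 genes of smallest adjusted p were Gnai2 (-0.45), Plcb1 (0.52), Atp2b3 (0.72), Atp2a2 (0.60) and Ryr2 (0.64). The ranges were separate in the same direction in both sexes for 16 of the 66 genes, 15 of them higher and 1, Plcl2, lower, against 12.2% of all genes. Prkab1 was higher in P522R_5xFAD than in M28L_5xFAD by 0.19 (SE 0.061, adjusted p = 0.00724), a call that was lost with centring within each panel, where the difference was 0.08. Cacna1e was higher by 0.64 (SE 0.058, adjusted p = 7.5e-12), and this call held under all alternatives. Of the 56 calls, 37 held under all alternatives and without each single mouse.

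Averaged over the genotypes, all 66 genes had lower normalized values in females than in males, with differences from -1.089 to -0.038 log2. Of the 66, 64 were called lower and 0 higher, and 86.4% of all genes were called. The median difference was -0.46 log2 over the 66 genes and -0.38 over all 1266 genes. Over all genes the median became -0.051 once each mouse was centred on its median, -0.024 with centring within each panel and -0.012 with quantile normalization. With median centring the call split of the 66 genes became 14 higher and 35 lower. Centring within each panel gave 10 higher and 22 lower, and quantile normalization gave 12 higher and 31 lower. The direction of 26 of the 64 called genes turned under at least 1 alternative, whereas 13 stayed lower in females and called under all alternatives run for this comparison. Those include the index number as a block, whose limit between the sexes is given at the end. These 13 were the cyclases Adcy1, Adcy5 and Adcy9, the pumps Atp2b2, Atp2b3 and Atp2b4, the channel genes Cacna1a, Cacna1e and Ryr1, and Camk2a, Camk2b, Gnai2 and Inpp4a.

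The 5 genes of smallest p between the sexes were Gnai2 (-0.56, SE 0.027), Camk2b (-0.70, SE 0.036), Plcb1 (-0.51, SE 0.029), Cacna1a (-0.72, SE 0.044) and Adcy9 (-0.63, SE 0.042). Of these, Plcb1 lost its call when values were centred within each panel (-0.041, adjusted p = 0.324). Plcb4 and Prkag1 were the 2 genes not called. Total counts were lower in 5xFAD and M28L_5xFAD females than in the males of those genotypes in both panels, and the part of depth in the difference between the sexes was not tested.

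The effect of P522R differed between females and males for 14 of the 66 genes in the interaction test, and 20.9% of all genes were called there. In 12 the difference from 5xFAD was more positive in females, and in 2, Prkag1 and Ppp3cb, more positive in males. Total counts were higher in P522R_5xFAD than in 5xFAD females in both panels but overlapped in males, and the part of depth in this interaction was not tested. Adcy1, a cyclase that calmodulin activates, was higher in P522R_5xFAD females (0.22) and lower in P522R_5xFAD males (-0.44), both called, with a difference between the sexes of 0.66 (SE 0.10, adjusted p = 2.44e-05). The call in females was lost with median centring and with centring within each panel, and its difference ran from 0.12 to 0.26 over the alternatives and single mice left out, whereas the call in males and the interaction held under all of them. For Adcy1, the 5xFAD, M28L_5xFAD and P522R_5xFAD females had median log2 values (lowest to highest) of 10.21 (10.10 to 10.44), 10.31 (10.22 to 10.52) and 10.46 (10.29 to 10.63), and the males of 10.95 (10.83 to 11.05), 10.98 (10.91 to 11.17) and 10.53 (10.23 to 10.78). In males the P522R_5xFAD range lay below that of 5xFAD, and in females it overlapped it from above. Adcy5 had the same signs, at 0.27 in females and -0.31 in males, and both values were called. Here too the call in females, and not that in males, was lost with median centring and with centring within each panel (range in females 0.17 to 0.31). Its genotype difference in females exceeded that in males by 0.58 (SE 0.12, adjusted p = 0.000462).

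Camk2b and Gnai2 were lowered more in males. Camk2b differed by -0.04 in females and -0.66 in males, an interaction of 0.62 (SE 0.087, adjusted p = 4.07e-06). Gnai2 differed by -0.13 and -0.59, an interaction of 0.45 (SE 0.067, adjusted p = 8.6e-06). Prkag1, the γ1 subunit of AMP-activated protein kinase, was lower in P522R_5xFAD females (-0.22) and higher in P522R_5xFAD males (0.18), both called, with an interaction of -0.40 (SE 0.078, adjusted p = 0.000378). For Prkag1, the median log2 value (lowest to highest mouse) was 10.52 (10.43 to 10.55) in 5xFAD, 10.52 (10.44 to 10.78) in M28L_5xFAD and 10.32 (10.14 to 10.45) in P522R_5xFAD females, and 10.41 (10.34 to 10.53), 10.45 (10.38 to 10.53) and 10.62 (10.49 to 10.67) in the males of those genotypes. The ranges of P522R_5xFAD and 5xFAD overlapped in each sex, with P522R_5xFAD low in females and high in males. The other genes called were Camk2a, Ryr1, Gnao1, Cacna1a, Inpp4a, Adcy9, Atp2b4, Gnb5 and Ppp3cb. The split of 12 and 2 became 6 and 9 with median centring, 6 and 3 with centring within each panel, and 8 and 5 with quantile normalization. Of the 14 genes, 6 held under all alternatives run for them and without each single mouse: Adcy1, Adcy5, Camk2a, Camk2b, Gnai2 and Prkag1.

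**Figure D4:**
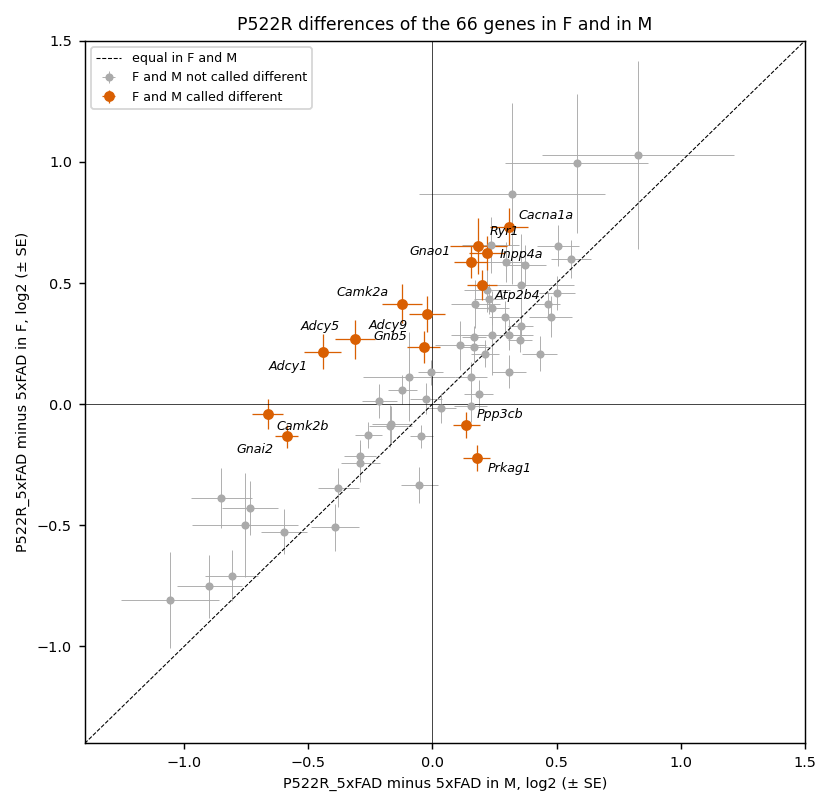
Log2 difference of P522R_5xFAD minus 5xFAD in males (horizontal) against that in females (vertical) for the 66 genes, with SE bars and 6 mice per group; orange points are the 14 genes whose difference was called different between the sexes, and the dashed line marks equal values. Adcy1 and Adcy5 lie in the upper left (higher in females, lower in males, with both female calls lost under 2 of the 3 other scalings), and Prkag1 and Ppp3cb lie below the line.

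Within each sex taken alone, 52 of the 66 genes were called in P522R_5xFAD females, 36 higher and 16 lower, with 60.2% of all genes called, and 43 in males, 26 higher and 17 lower, with 50.6% of all genes. With median centring the split in females was 26 higher and 18 lower. For M28L the interaction test of limma called 0 of the 66 genes and 0% of all genes. No member had an unadjusted p under 0.05 there, while 34 of 1266 genes did. The members of smallest p were Prkab2 (-0.18), Gng3 (0.14), Prkab1 (0.22), Itpr3 (-0.48) and Ryr1 (-0.26).

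Genes around the 66 were counted from 5 lists of partners, with no test of a list. Of all 1266 genes, 65.4% were called in P522R_5xFAD (513 higher, 315 lower) and 10.3% in M28L_5xFAD (59 higher, 71 lower). Of 9 measured receptors and adaptors that act before phospholipase C, 5 rose and 2 fell in P522R_5xFAD (median 0.23), among them the growth factor receptors Pdgfra (0.47) and Egfr (0.62). In M28L_5xFAD 3 of the 9 fell, Tyrobp (-0.45), Trem2 (-0.43) and Chrm3 (-0.20). Trem2 and Tyrobp form the microglial receptor complex that acts before phospholipase C-γ2. Of 11 genes of calcium binding, buffering and entry, 3 rose and 6 fell in P522R_5xFAD (median -0.20), among them the NMDA receptor subunit Grin2b (-0.67), lower, and the sodium-calcium exchanger Slc8a1 (0.34), higher. In M28L_5xFAD Calb2, the calcium buffer calretinin, rose (0.54) and Grin2a fell (-0.16).

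After phosphatidylinositol 3-kinase, 3 of 8 genes rose and 4 fell in P522R_5xFAD (median -0.13). Of these, Tsc1 rose by 0.40. Of 6 genes of cAMP handling, 2 rose and 2 fell (median -0.057), with the phosphodiesterase Pde4d at -0.64, the transcription factor Creb1 at -0.74 and Pde1b at 0.29. Both measured regulators of G proteins and their receptors, Grk3 and Arrb2, were not called (median 0.058). In M28L_5xFAD none of these 3 lists held a called gene. Over all 1266 genes the medians were 0.084 in P522R_5xFAD, with 65.4% called, and 0.001 in M28L_5xFAD, with 10.3% called.

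Cell type markers moved with genotype and are given beside these values. Neuronal markers were well detected (7 measured, lowest count 388), and striatal markers of medium spiny neurons were present too (Drd1, Drd2 and Adora2a, lowest count 77). In P522R_5xFAD, 6 of 7 neuronal, 4 of 5 astrocyte, 4 of 4 oligodendrocyte precursor, 1 of 5 oligodendrocyte, 2 of 8 microglial, 1 of 4 endothelial and pericyte, 1 of 3 medium spiny and 3 of 4 lymphocyte markers rose. In the same comparison 2 microglial, 2 endothelial and pericyte, 1 oligodendrocyte and 1 medium spiny marker fell. Of all 1266 genes, 65.4% were called in that comparison, 513 higher and 315 lower. The summed linear level of the neuronal markers was 45378 to 54741 in 5xFAD females and 60377 to 72444 in P522R_5xFAD females, and 67352 to 71064 against 77242 to 90838 in the males. The summed level of oligodendrocyte precursor markers was 583.2 to 716.4 against 893.5 to 1294 in females and 832.4 to 1062 against 1120 to 1440 in males. Neither of these sums overlapped between P522R_5xFAD and 5xFAD in either sex. The endothelial and pericyte sum was lower in P522R_5xFAD males (530.8 to 692.4 against 742.6 to 946.8) and overlapped in females. The lymphocyte sum was higher in P522R_5xFAD males (48.2 to 70.9 against 31.8 to 42.5) and overlapped in females. The astrocyte, oligodendrocyte, microglial and medium spiny sums overlapped in both sexes. In the interaction test of P522R and sex, 2 neuronal, 1 medium spiny, 1 astrocyte, 2 oligodendrocyte, 2 precursor and 3 endothelial and pericyte markers were called, all more positive in females. Of all 1266 genes, 20.9% were called there, 199 more positive in females and 65 more positive in males. The all-gene median of this interaction was 0.102 under the deposited scaling and -0.025 with median centring. The marker calls are given under the deposited scaling only. Between the sexes, all 7 neuronal markers were lower in females under the deposited scaling, as were 1060 of all 1266 genes. The part of these markers in the differences of the 66 genes was not tested.

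In M28L_5xFAD, 3 of 8 microglial markers fell and 1 rose, 1 of 5 astrocyte and 1 of 4 endothelial and pericyte markers fell, and no neuronal, oligodendrocyte, precursor, medium spiny or lymphocyte marker was called. Of all 1266 genes, 10.3% were called in M28L_5xFAD, 59 higher and 71 lower. The summed microglial level was 6682 to 8439 in M28L_5xFAD females against 8195 to 11443 in 5xFAD females, and 6570 to 9299 against 8039 to 10469 in males. These ranges overlapped in both sexes. No marker stood at 0 in any mouse, and the lowest count was 1, for a lymphocyte marker. The part of these markers in the fall of Prkab1, Cacna1e and Plcb4 was not tested.

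By panel, the 33 genes of the larger panel gave 18 higher and 6 lower in P522R_5xFAD, against 330 higher and 154 lower of all 757 genes there. The 33 of the smaller panel gave 18 higher and 11 lower, against 183 and 161 of all 509. The medians were 0.13 and 0.18 for the members of the larger and the smaller panel, and 0.11 and 0.028 for all genes. The 3 genes called in M28L_5xFAD came from the larger panel, in which the median of all genes was -0.027, against 0.045 in the smaller panel.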

How the data were processed

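Cortical RNA of 36 mice was counted with 2 NanoString panels. By the scaling of the values, 757 genes were assigned to 1 panel and 509 to the other. Each gene is listed once, so the full size of each panel and the genes they share are not known. The authors deposited 1 column of log2 normalized values per mouse that joins both panels; how they were normalized is not given in the sources used. The 251 rows without a name held no values and were left out. Whole counts were recovered from the deposited values (100.0% within 0.05 of a whole number) and used for depth only; without knowledge of separate litters, p-values measure the spread between mice. The column of each mouse was assigned by its label, and 0 columns stayed unmapped. Members and lists were chosen with earlier results of these data known.

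Group means of the 6 groups were fitted with limma 3.58.1 (R 4.3.3) with an intensity trend, and 10 contrasts were tested over 1266 genes with Benjamini-Hochberg adjustment at 0.05. The fit was tested on simulated data. Named genes were, per class, up to 4 called members of largest difference for each variant against 5xFAD (or the one of smallest p), and the 5 of smallest adjusted p elsewhere. Group values are given for members called in M28L_5xFAD, for the largest P522R difference per class and for Adcy1 and Prkag1, the last chosen after their values were seen. The 12 alternatives were 3 scalings, a filter at a mean log2 of 5, a pseudocount of 20, no trend, no term for sex, only the genotypes compared, the index number as a block, the mice numbered 14 as their mean, and M28L_5xFAD mice of index 1 to 3 or 7 to 9; each mouse was also left out. Promoters were matched by symbol to RefSeq (GRCm38.p6). The promoters shown and the motifs searched were chosen after the values were seen. Some partner genes counted in the lists are not reported here.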

Additional observations from a re-analysis of the deposited data

Results flagged for a closer look

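The effect of P522R differed between females and males, by the interaction test, for 14 of the 66 genes (21.2%). Of all 1266 genes, a near equal share was called there (20.9%). The difference in females minus that in males was 0.66 for Adcy1, 0.62 for Camk2b, 0.58 for Adcy5, 0.54 for Camk2a, 0.47 for Ryr1, 0.45 for Gnai2, 0.43 for Gnao1, 0.42 for Cacna1a, 0.40 for Inpp4a, 0.39 for Adcy9, 0.29 for Atp2b4, 0.27 for Gnb5, -0.40 for Prkag1 and -0.22 for Ppp3cb.

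Single mice stood apart from their group in 3 of 108 group values examined by Dixon's test, where chance flags about 1 in 20. Gnb1 was 12.09 in 5xFAD female 1180, against 12.36 to 12.49 in the other females of that group. In M28L_5xFAD female 12 it was 12.04, against 12.44 to 12.62 in the others. Camk2b was 11.07 in 5xFAD female 1189, against 10.84 to 10.89 in the others.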

How the results depend on the processing

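The count of called genes stayed within 1.5 times its main value under most of the 12 alternatives, and these did not. For M28L_5xFAD against 5xFAD the count was 5 with quantile normalization (2 higher, 3 lower) and 1 without a term for sex, and it ran from 2 to 5 when single mice were left out. It was 5 without M28L_5xFAD female 12 and without P522R_5xFAD female 60. In females alone the M28L count was 3 with M28L_5xFAD mice of index 1 to 3, and 0 to 2 without single mice (2 without female 12, 1 without female 16); in males it was 0 with index 1 to 3. For females against males it was 32 with centring within each panel and 37 with the index number as a block. The blocks were set within each sex. With them, the level of a sex rests on the mice that share an index number with no other mouse of that sex. The count of 37 is therefore not like for like with the main count. For the interaction of P522R and sex it was 9 with centring within each panel. The difference of Gngt1 in P522R_5xFAD turned to -0.32 under quantile normalization. Leaving out single mice gave 50 to 54 calls for P522R against 5xFAD, 53 to 56 for P522R against M28L, 61 to 64 between the sexes and 11 to 17 for the P522R interaction. Of 22 same-numbered pairs, 1 had a correlation of deviations over 0.1, so the index numbers were not taken to pair the mice; with the replicate block P522R against 5xFAD gave 48 calls. The cause of these changes was not tested. Low counts limit Gngt1, Cacna1f and Cacna1s, whose means lay under 20. For the other genes the part of depth in the P522R differences of females was not tested.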
